A study of Bos taurus with 24 samples.

Results

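The 40 genes described here encode the protein-folding machinery of the endoplasmic reticulum (ER) and the stress response run by the transcription factor ATF4. They were chosen by symbol, 20 for ER folding and degradation and 20 for the ATF4 and amino acid response, and each symbol matched 1 of the 11937 genes in the deposited count table. RNA was sequenced from wild-type satellite cells of cattle, which are the resident stem cells of muscle and here came from musculus longissimus dorsi. In coculture the satellite cells shared medium with fibroblasts across a membrane with pores of 0.4 µm, and in monoculture they were grown without fibroblasts. Both cultures combined 3 satellite cell lines, at passage 3, so the values cannot be assigned to a single line. The fibroblasts were at passage 10. Both had a medium with 20% fetal bovine serum for 5 days of proliferation, and both were then moved to 10% horse serum to start differentiation. The 6 groups were coculture and monoculture in proliferation, coculture and monoculture after 24 h of differentiation, and coculture and monoculture after 72 h, with 4 libraries each. Whether the 4 replicates of a group were grown separately is not stated in the labels, and the p-values therefore cover only the spread between libraries, which may be technical.

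Proteins that enter the ER are folded by chaperones, of which HSPA5 (also called BiP) is the central one, and by disulfide isomerases. Those that fail to fold are exported and degraded. When unfolded proteins build up, the sensors ATF6, ERN1 (IRE1) and EIF2AK3 (PERK) start the unfolded protein response. Cleaved ATF6 and the XBP1 protein made after splicing by ERN1 turn on chaperone and degradation genes. EIF2AK3 and related kinases phosphorylate the initiation factor eIF2alpha, which slows translation in general but raises translation of ATF4, and ATF4 then turns on genes of amino acid supply, redox balance and feedback on eIF2alpha. Muscle cells are known to switch on parts of this response as they leave the cell cycle and fuse. The roles given here come from work in human and mouse cells. XBP1 splicing, ATF6 cleavage and phosphorylation are not visible in gene counts.

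The libraries held 11.5 to 35 M counts, and every gene had at least 6 counts in each of them. Levels are given as CPM, counts scaled to a common library total by the TMM method, and differences as log2 fold changes with standard errors. A gene was called where edgeR's quasi-likelihood F test gave a p-value under 0.05 after Benjamini-Hochberg adjustment over all 11937 genes. The table lists 3 of 11 satellite cell markers looked for (DES, ITGA7 and NCAM1), 11 of 15 for fibroblasts and fibro-adipogenic progenitors, 1 of 7 for leukocytes and 1 of 6 for endothelium. PAX7, MYF5, MYOD1 and MYOG were looked for and gave no match by symbol, so the satellite cell label can be checked here on few genes only. The summed level of the satellite markers was 157 to 174 CPM in coculture and 112 to 117 CPM in monoculture in proliferation. It was 153 to 180 CPM against 234 to 256 CPM at 24 h, and 157 to 182 CPM against 332 to 363 CPM at 72 h. The fibroblast list summed to 50600 to 51600 CPM in coculture against 39700 to 43700 CPM in monoculture in proliferation. It summed to 68400 to 77000 CPM against 71800 to 79400 CPM at 24 h and to 86800 to 91800 CPM against 96900 to 106000 CPM at 72 h. Such sums weigh the most abundant genes most. Of the 11 fibroblast genes, 5 were called higher and 3 lower in coculture in proliferation (median log2 fold change -0.065). At 24 h 4 were higher and 2 lower (0.144), and at 72 h 4 and 3 (0.212), beside the shares of all genes given below. The medians in proliferation and at 72 h thus went the other way from the sums. What these markers have to do with the differences below was not tested, and in such bulk RNA fewer cells of a type and less RNA per cell cannot be told apart. All proliferation libraries, all monoculture libraries and replicates 1 and 2 of coculture at 24 h carry the label of sequencing lane 6, and the other coculture libraries that of lane 7, so at 72 h lane and culture cannot be told apart by these groups alone. The labels also carry a code of unstated meaning, 1 for monoculture at 24 h and 72 h and 2 for the other 4 groups. At these times it cannot be told apart from culture, nor within monoculture from the step between proliferation and 24 h. Nuclear ribosomal RNA took over 1.5% of counts in 4 libraries of the differentiation times, with 4.07% in replicate 2 of coculture at 24 h, 2.24% in replicate 1 of coculture at 72 h, and 2.14% and 1.76% in replicates 3 and 4 of monoculture at 72 h.

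Coculture cells in proliferation had higher RNA levels of TRIB3, SESN2, SDF2L1, CRELD2 and of the enzymes PHGDH, SHMT2 and MTHFD2 than monoculture cells, while GDF15 was lower. At 24 h the 5 called genes with the largest differences were GDF15 and DDIT3, which were lower, and PSAT1, SHMT2 and MTHFD2, which were higher. At 72 h ATF3, PPP1R15A, GDF15 and HSPA5 were lower in coculture, and ERN1, ATF6, EDEM1, MTHFD2 and SLC7A11 were higher. In proliferation 18 of the 40 genes were higher and 8 lower, 26 in all, where 59.0% of all genes were called (30.3% higher and 28.7% lower). The ER folding genes counted 7 higher and 5 lower with a median log2 fold change of 0.041, the ATF4 genes 11 higher and 3 lower with a median of 0.16, and all genes had a median of 0.004. The 4 coculture and 4 monoculture libraries did not overlap for 27 of the 40 genes, against 53.0% of all genes. With library sizes alone in place of TMM scaling the split in proliferation was 14 higher and 11 lower.

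At 24 h 9 genes were higher and 5 lower, 14 in all, where 23.8% of all genes were called (11.5% higher and 12.2% lower). Of the ER folding genes 3 were higher and 2 lower (median -0.03), and of the ATF4 genes 6 were higher and 3 lower (median 0.07), beside a median of -0.003 for all genes. The groups did not overlap for 16 of the 40 genes, against 24.4% of all genes. At 72 h 11 genes were higher and 15 lower, 26 in all, where 50.5% of all genes were called (25.1% higher and 25.4% lower). The ER folding genes then counted 5 higher and 7 lower (median -0.03) and the ATF4 genes 6 higher and 8 lower (median 0.03), beside a median of -0.001 for all genes, and the groups did not overlap for 24 of the 40, against 42.0% of all genes. Library sizes alone moved the median of all genes at 72 h to 0.13 and the split of the 40 genes to 18 higher and 5 lower. Changes named here are relative to the TMM scale. With lane as a covariate, estimated from the coculture 24 h libraries that lie on both lanes, the 72 h comparison called 12 genes, of which 4 were higher and 8 lower. GDF15 at 24 h and at 72 h was the only one of the 40 genes called with a difference of at least 2-fold between the cultures.

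**Figure D1:**
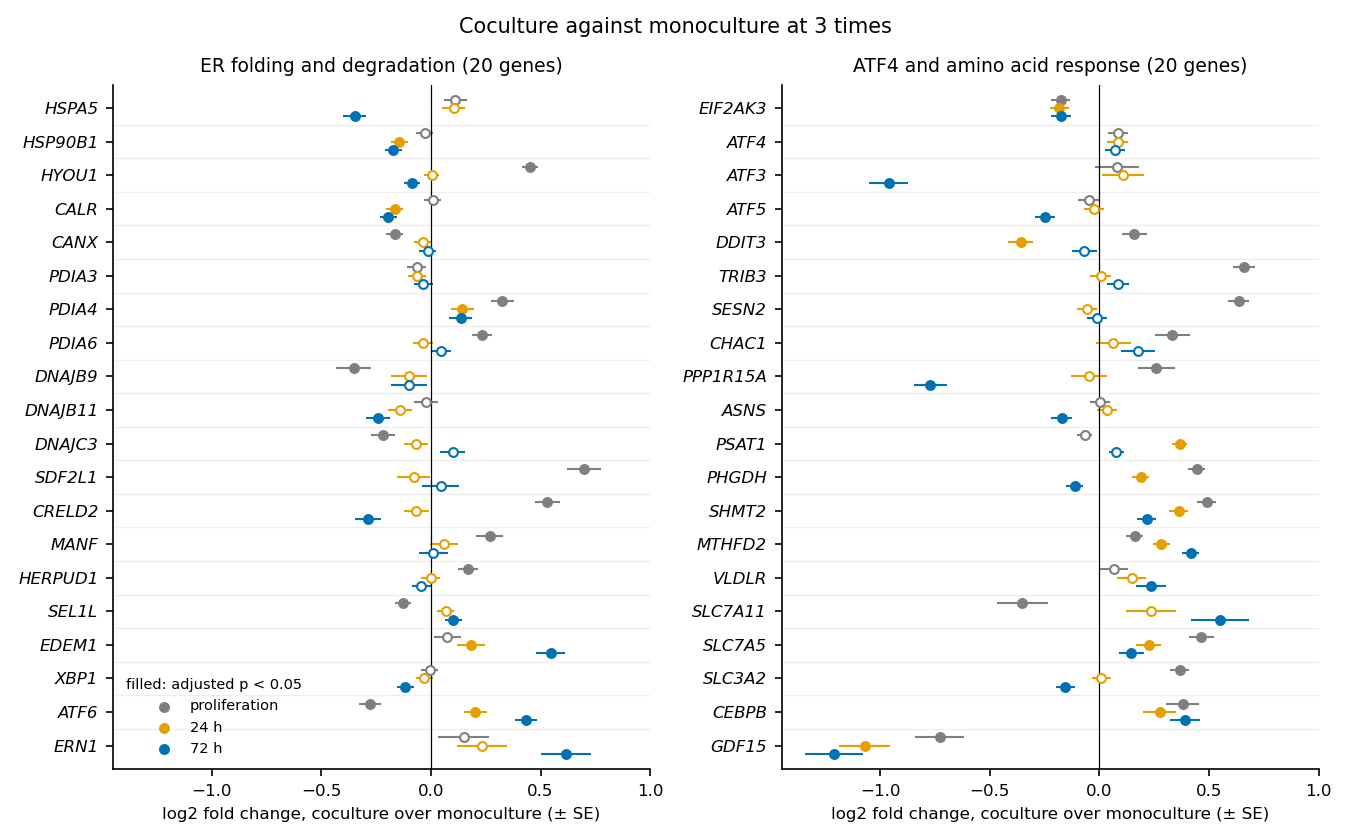
Log2 fold change of coculture over monoculture (x axis, ± SE) for the 20 ER folding and degradation genes and the 20 ATF4 and amino acid response genes in proliferation, at 24 h and at 72 h, with filled points for genes called by edgeR at an adjusted p under 0.05. GDF15 lies at -0.73, -1.07 and -1.21 and PSAT1 at -0.07, 0.37 and 0.08 in order of time, while SDF2L1, TRIB3 and SESN2 stand apart from 0 in proliferation.

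Among the sensors, ATF6 was lower in coculture in proliferation and higher at both later times. ATF6, the membrane-bound factor that is cleaved to act in the nucleus, had 52.0, 48.8, 54.6 and 56.0 CPM in coculture, against 65.5, 61.7, 60.9 and 67.5 CPM in monoculture, in proliferation (log2 -0.28 ± 0.0498 SE, edgeR adjusted p = 2.00e-05). At 72 h it stood at 60.4, 62.8, 65.0 and 64.1 CPM in coculture and 42.4, 48.4, 48.9 and 47.7 CPM in monoculture, which is 0.43 ± 0.0508 (SE; edgeR adjusted p = 2.57e-08) on the log2 scale. The groups did not overlap at either time, with coculture the lower group at the first and the higher at the second. At 24 h the means were 57.0 ± 1.44 CPM in coculture and 49.5 ± 2.48 CPM in monoculture (SD, n = 4 each), or 0.20 ± 0.0503 (SE; edgeR adjusted p = 0.00332) on the log2 scale.

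ERN1, the kinase and nuclease that splices XBP1 RNA, was not called in proliferation or at 24 h (log2 0.15 ± 0.117 and 0.23 ± 0.114). At 72 h it had 8.89, 7.19, 8.10 and 7.87 CPM in coculture and 5.37, 5.92, 5.28 and 4.14 CPM in monoculture, and all coculture libraries lay above all monoculture libraries. The log2 difference was 0.62 ± 0.113 (SE; edgeR adjusted p = 3.52e-05). With lane as a covariate it was 0.76 (edgeR adjusted p = 0.00348), and without the 4 libraries rich in ribosomal RNA it was 0.46. XBP1, the target of that splicing, had 146, 147, 142 and 139.7 CPM in coculture and 152, 155, 155 and 162 CPM in monoculture at 72 h. Each coculture library was below each monoculture library, and XBP1 fell by 0.12 ± 0.0392 on the log2 scale (SE; edgeR adjusted p = 0.0131). This call was lost with lane as a covariate (edgeR adjusted p = 0.0555) and without the libraries rich in ribosomal RNA (edgeR adjusted p = 0.0799), and with library sizes alone the log2 value was 0.01. In proliferation XBP1 had 145, 153, 139.9 and 141 CPM in coculture and 142, 145, 148 and 147 CPM in monoculture. At 24 h the XBP1 values were 167, 162, 166 and 176 CPM in coculture and 180.3, 168, 165 and 172 CPM in monoculture. The groups overlapped at both of these times and neither difference was called. EIF2AK3, the eIF2alpha kinase of the ER, was lower in coculture at all 3 times on the TMM scale, with log2 fold changes of -0.18 ± 0.0433, -0.18 ± 0.0435 and -0.18 ± 0.0443 (edgeR adjusted p = 0.000854, 0.00212 and 0.00143). With library sizes alone these values were -0.25, -0.19 and -0.04, and the last was not called (edgeR adjusted p = 0.447).

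The 11 chaperones and their co-factors were mixed in proliferation, 4 higher and 3 lower in coculture. At 24 h 0 were higher and 2 lower, and at 72 h 0 were higher and 6 lower. Over all genes the shares higher and lower were 30.3% and 28.7% in proliferation, 11.5% and 12.2% at 24 h, and 25.1% and 25.4% at 72 h. The 6 lower at 72 h were HSPA5, HSP90B1, HYOU1, CALR, DNAJB11 and CRELD2. With lane as a covariate HSPA5, CALR and DNAJB11 were called. With library sizes alone HYOU1 changed sign, HSP90B1, CALR and DNAJB11 were not called, and DNAJC3 and CANX were called as higher. HSPA5, the chaperone that binds unfolded chains and holds the sensors inactive, lies on chromosome 11 at 96115159 to 96119440 in the deposited table (ENSBTAG00000007662; no source used here names the genome build). It had 1659, 1530, 1592 and 1609 CPM in coculture, against 2211, 2117, 1722 and 2077 CPM in monoculture, at 72 h. All 4 coculture libraries were below all 4 monoculture libraries, of which replicate 3 was the lowest. The log2 difference was -0.35 ± 0.052 (SE; edgeR adjusted p = 1.76e-06). With lane as a covariate it was -0.36 (edgeR adjusted p = 0.00339) and without the libraries rich in ribosomal RNA -0.46.

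Before differentiation HSPA5 had 862, 873, 883 and 864 CPM in coculture and 815, 836, 799.8 and 774 CPM in monoculture. The coculture libraries were all higher, but the log2 difference of 0.11 ± 0.052 (SE; edgeR adjusted p = 0.0677) was not called. A fit of these 2 groups alone called it at an edgeR adjusted p of 0.00726. At 24 h the values were 1032, 945, 1004 and 993 CPM in coculture and 983, 894, 917 and 906 CPM in monoculture, which overlapped. The log2 difference of 0.10 ± 0.052 (SE; edgeR adjusted p = 0.152) was not called, although it was without the libraries rich in ribosomal RNA (log2 0.13, edgeR adjusted p = 0.0135).

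SDF2L1, an ER protein that works with DNAJB11 to keep HSPA5 clients soluble, had 15.5, 16.1, 14.2 and 14.9 CPM in coculture and 8.51, 10.1, 10.7 and 8.33 CPM in monoculture in proliferation (log2 0.70 ± 0.0771 SE, edgeR adjusted p = 8.97e-09). CRELD2, a stress-induced ER protein with isomerase-like activity, had 42.7, 45.6, 42.3 and 43.9 CPM in coculture, against 28.1, 31.9, 29.4 and 31.6 CPM in monoculture (log2 0.53 ± 0.0569 SE, edgeR adjusted p = 5.08e-09). In each case every coculture library was above every monoculture library. At 24 h neither was called, with log2 fold changes of -0.08 and -0.07. CRELD2 fell in coculture at 72 h, to 28.1 ± 2.10 CPM against 34.3 ± 2.60 CPM in monoculture (SD, n = 4 each; log2 -0.29 ± 0.0593 SE, edgeR adjusted p = 0.000176), a call lost with lane as a covariate (edgeR adjusted p = 0.0824). HYOU1, which recharges HSPA5 with ATP, averaged 279.5 ± 6.14 CPM in coculture and 204 ± 4.12 CPM in monoculture in proliferation (log2 0.45 ± 0.0357 SE, edgeR adjusted p = 1.89e-11). Its 72 h log2 difference of -0.09 ± 0.0354 (SE; edgeR adjusted p = 0.0438) was lost without any of replicates 2, 3 and 4 of coculture or 1, 2 and 4 of monoculture. MANF, a secreted ER stress protein, rose in proliferation (log2 0.27 ± 0.0612), while the co-chaperones DNAJB9 (-0.35 ± 0.0809) and DNAJC3 (-0.22 ± 0.055) and the lectin chaperone CANX (-0.17 ± 0.0373) fell. At 72 h DNAJC3 was not called (0.10 ± 0.056), but it was without monoculture replicate 3 (0.19, edgeR adjusted p = 0.000731), which is rich in ribosomal RNA. DNAJB11, a co-chaperone of HSPA5, was lower at 72 h (-0.24 ± 0.056) and not called at 24 h (-0.14 ± 0.055). The 24 h difference was called without monoculture replicate 3 (-0.19, edgeR adjusted p = 0.0146), without the libraries rich in ribosomal RNA (-0.13, edgeR adjusted p = 0.0360) and with genes under a mean of 5 CPM removed, and the 72 h call was lost without the libraries rich in ribosomal RNA (edgeR adjusted p = 0.0811). CALR, the soluble lectin chaperone, and HSP90B1, the ER form of HSP90, were lower at 24 h (log2 -0.17 and -0.14) and 72 h (-0.19 and -0.17). The HSP90B1 call was lost with lane as a covariate at both times.

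**Figure D2:**
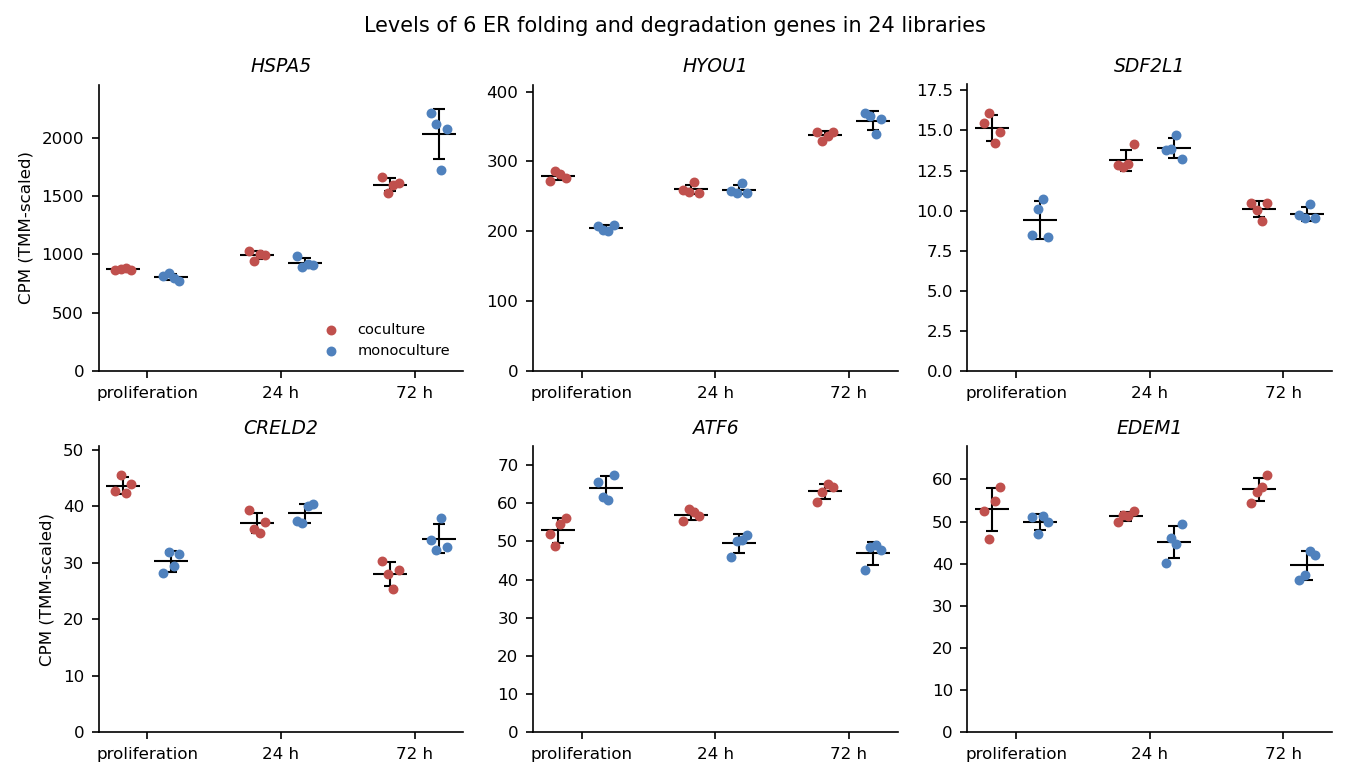
CPM after TMM scaling (y axis, from 0) of 6 ER folding and degradation genes in each of the 4 coculture and 4 monoculture libraries per time, with bars for the mean and SD. The coculture points of SDF2L1, CRELD2 and HYOU1 lie above the monoculture points in proliferation, those of HSPA5 lie below at 72 h, and ATF6 and EDEM1 are higher in coculture at 72 h.

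Of the disulfide isomerases, which form and rearrange disulfide bonds, PDIA4 was higher in coculture at all 3 times (log2 0.33 ± 0.0519, 0.14 ± 0.052 and 0.14 ± 0.0526). Only the first of these held on leaving out each library in turn: the 24 h call was lost without any of the 8 libraries, and the 72 h call without any of replicates 1, 2 and 4 of either culture. Both were lost with lane as a covariate (edgeR adjusted p = 0.0901 and 0.177). At 72 h monoculture replicate 3 had 194 CPM of PDIA4 and the other monoculture libraries 148 to 152 CPM. PDIA6 was called in proliferation (log2 0.23 ± 0.0451), and at 72 h only without monoculture replicate 3 (log2 0.12, edgeR adjusted p = 0.00807), without all libraries rich in ribosomal RNA (0.15) or with library sizes alone (0.18). PDIA3 was called at no time on the TMM scale with all libraries fitted, with log2 fold changes of -0.07, -0.06 and -0.03. In proliferation it was called as lower with library sizes alone (-0.13, edgeR adjusted p = 0.0175) and in a fit of the groups compared (edgeR adjusted p = 0.0410). Among the degradation genes, EDEM1, which marks misfolded glycoproteins for export from the ER, had 54.4, 56.9, 58.1 and 61.1 CPM in coculture and 36.1, 37.4, 43.0 and 42.1 CPM in monoculture at 72 h. The groups did not overlap, the log2 difference was 0.55 ± 0.0649 (SE; edgeR adjusted p = 3.21e-08), and it was 0.51 with lane as a covariate (edgeR adjusted p = 0.000793). At 24 h its log2 difference of 0.18 ± 0.0639 (SE; edgeR adjusted p = 0.0363) was lost without any of replicates 2, 3 and 4 of coculture or 1, 2 and 3 of monoculture, with lane as a covariate (edgeR adjusted p = 0.161) and with library sizes alone (edgeR adjusted p = 0.0543). SEL1L, the adaptor of the HRD1 ubiquitin ligase, was lower in proliferation (log2 -0.13 ± 0.0384) and higher at 72 h (0.10 ± 0.0384), where the call was lost without coculture replicate 3 or 4, without monoculture replicate 1, with lane as a covariate, or in a fit of the groups compared. HERPUD1, a stress-induced partner of the same ligase, was higher in proliferation (log2 0.17 ± 0.0439; edgeR adjusted p = 0.105 with library sizes alone) and not called later (-0.00 and -0.04).

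ATF4 RNA itself was not called at any time, and neither was it called between successive times in either culture. In proliferation it had 414, 458, 420.4 and 414 CPM in coculture and 379, 392, 415 and 423 CPM in monoculture. At 24 h the values were 441, 415, 429 and 433 CPM in coculture and 438, 399, 394 and 391 CPM in monoculture. At 72 h they were 447, 447, 459 and 439 CPM in coculture and 453, 424, 434 and 395 CPM in monoculture. The groups overlapped at each time, and the log2 fold changes were 0.08 ± 0.0462, 0.08 ± 0.0462 and 0.07 ± 0.0462 (SE). With library sizes alone the 72 h value was 0.20 (edgeR adjusted p = 0.0021), and with lane as a covariate 0.06. The gene (ENSBTAG00000017462) is placed on chromosome 5 at 110946716 to 110949643.

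DDIT3, which encodes the stress-induced factor CHOP, was higher in coculture in proliferation and lower at 24 h. Coculture libraries in proliferation had 59.0, 59.2, 59.7 and 59.5 CPM, against 50.2, 55.2, 53.9 and 53.1 CPM in monoculture, without overlap (log2 0.16 ± 0.057 SE, edgeR adjusted p = 0.0181). The call was lost without monoculture replicate 1 (edgeR adjusted p = 0.0636) and with library sizes alone. At 24 h coculture had 52.5, 46.2, 47.3 and 49.7 CPM and monoculture 71.2, 62.1, 54.7 and 63.5 CPM. Every coculture library was again on its own side of the monoculture libraries, here below them, at a log2 difference of -0.36 ± 0.0571 (SE; edgeR adjusted p = 1.90e-05). The values overlapped at 72 h, with 54.8, 52.0, 55.3 and 51.9 CPM in coculture and 58.5, 55.4, 59.2 and 51.0 CPM in monoculture, and the log2 difference of -0.07 ± 0.0577 (SE; edgeR adjusted p = 0.333) was not called.

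ATF3, a factor of the same bZIP family induced by many stresses, had 27.7, 29.6, 32.1 and 28.7 CPM in coculture and 69.8, 61.0, 40.6 and 57.7 CPM in monoculture at 72 h. No coculture library reached the lowest monoculture library, replicate 3. The log2 difference was -0.96 ± 0.0885 (SE; edgeR adjusted p = 1.98e-10), -0.99 with lane as a covariate and -1.12 without the libraries rich in ribosomal RNA. At the earlier times the group means were 19.3 ± 0.947 CPM in coculture and 18.2 ± 0.42 CPM in monoculture in proliferation and 24.4 ± 0.739 against 22.7 ± 0.606 CPM at 24 h (SD, n = 4 each). Neither difference was called. ATF5, a related factor of the amino acid response, was lower at 72 h (log2 -0.25 ± 0.0462 SE, edgeR adjusted p = 4.85e-05). The value was -0.33 with lane as a covariate, and with library sizes alone -0.12 and not called (edgeR adjusted p = 0.0665). CEBPB, a bZIP partner of ATF4 with roles in inflammation and differentiation, was higher in coculture at all 3 times (log2 0.38 ± 0.076, 0.27 ± 0.074 and 0.39 ± 0.068). With lane as a covariate its later differences were 0.17 and 0.19 and neither was called (edgeR adjusted p = 0.2 and 0.247). The 24 h call was also lost without coculture 24 h replicate 4 (edgeR adjusted p = 0.0637).

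Of the 6 stress effectors and feedback genes, 4 were higher and 1 lower in coculture in proliferation, 0 and 1 at 24 h, and 1 and 2 at 72 h. The shares of all genes were 30.3% higher and 28.7% lower in proliferation, 11.5% and 12.2% at 24 h, and 25.1% and 25.4% at 72 h. TRIB3, a pseudokinase that restrains ATF4 and CHOP, had 53.4, 53.5, 56.1 and 57.6 CPM in coculture and 34.9, 33.4, 36.2 and 35.1 CPM in monoculture in proliferation (log2 0.66 ± 0.0505 SE, edgeR adjusted p = 1.11e-11). SESN2, a leucine sensor that inhibits the growth kinase complex mTORC1, had 60.0, 58.5, 61.5 and 65.3 CPM in coculture, against 38.6, 38.6, 41.0 and 39.4 CPM in monoculture (log2 0.63 ± 0.049 SE, edgeR adjusted p = 1.22e-11). The lowest coculture library exceeded the highest monoculture library in both cases. By 24 h TRIB3 averaged 65.1 ± 4.31 CPM in coculture and 64.9 ± 1.97 CPM in monoculture and SESN2 89.1 ± 3.24 CPM against 92.7 ± 3.73 CPM (SD, n = 4 each). These log2 differences of 0.01 ± 0.0477 and -0.06 ± 0.0459 were not called, nor were those at 72 h (0.09 ± 0.0495 and -0.01 ± 0.0457), although TRIB3 was called at 72 h with library sizes alone (log2 0.22). CHAC1, which breaks down glutathione, was higher in proliferation (log2 0.33 ± 0.0806) and not called at 72 h (0.17 ± 0.0779), where it was called without coculture replicate 3 or monoculture replicate 1 or 2 (0.23 to 0.24) and with library sizes alone (0.30). VLDLR, a lipoprotein receptor induced by this pathway, was higher at 72 h (log2 0.24 ± 0.0669; edgeR adjusted p = 0.0787 with lane as a covariate).

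PPP1R15A, also called GADD34, brings a phosphatase to eIF2alpha and so ends the translation block. It averaged 46.7 ± 1.48 CPM in coculture and 39.0 ± 1.34 CPM in monoculture in proliferation (SD, n = 4 each; log2 0.26 ± 0.0846 SE, edgeR adjusted p = 0.00954), which library sizes alone did not call. At 72 h it had 101, 105, 101 and 102 CPM in coculture and 210.1, 195, 136 and 156 CPM in monoculture. The coculture libraries lay close together, and the monoculture libraries were all higher and spread widely, with replicates 3 and 4, both rich in ribosomal RNA, at the low end. The log2 difference was -0.77 ± 0.0766 (SE; edgeR adjusted p = 9.77e-10), -0.69 with lane as a covariate and -0.98 without the libraries rich in ribosomal RNA.

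GDF15, a secreted hormone of the TGF-beta superfamily released by stressed cells, was lower in coculture at every time. It lies on chromosome 7 at 4777745 to 4780615 (ENSBTAG00000015618). In proliferation it had 12.8, 12.9, 12 and 9.90 CPM in coculture and 18.3, 19.5, 18.2 and 23.5 CPM in monoculture (log2 -0.73 ± 0.111 SE, edgeR adjusted p = 1.91e-06). At 24 h it had 8.61, 8.53, 8.42 and 8.28 CPM in coculture, against 13.3, 18.5, 18.6 and 20.5 CPM in monoculture (log2 -1.07 ± 0.118 SE, edgeR adjusted p = 4.89e-08). At 72 h the levels were 6.81, 4.81, 6.17 and 5.97 CPM in coculture and 14.3, 11.7, 16.2 and 12.8 CPM in monoculture (log2 -1.21 ± 0.131 SE, edgeR adjusted p = 5.48e-09). The 4 coculture libraries were below the 4 monoculture libraries each time, and with lane as a covariate the 72 h value was -1.17.

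**Figure D3:**
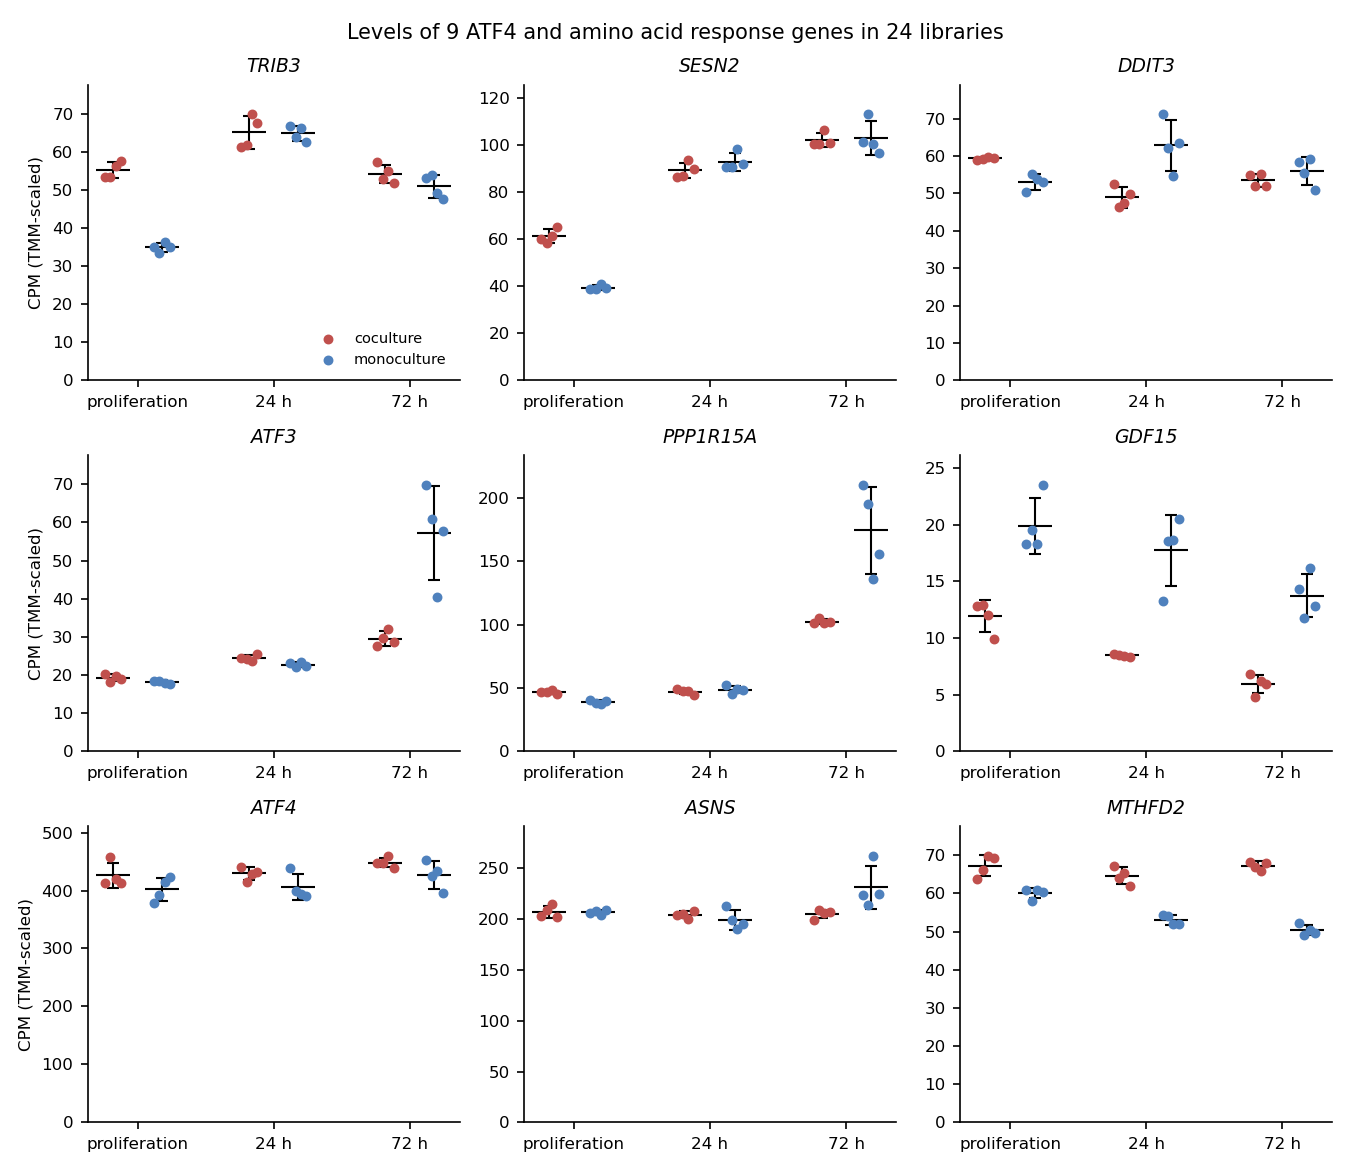
CPM after TMM scaling (y axis, from 0) of 9 ATF4 and amino acid response genes in each of the 4 coculture and 4 monoculture libraries per time, with bars for the mean and SD. TRIB3 and SESN2 are higher in coculture in proliferation, ATF3 and PPP1R15A are higher in monoculture at 72 h, GDF15 is lower in coculture at each time, and the ATF4 groups overlap throughout.

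Of the 5 enzymes of amino acid and one-carbon supply, 3 were higher and 0 lower in coculture in proliferation, 4 and 0 at 24 h, and 2 and 2 at 72 h. Among all genes 30.3% were higher and 28.7% lower in proliferation, 11.5% and 12.2% at 24 h, and 25.1% and 25.4% at 72 h. MTHFD2 and SHMT2, which act in the mitochondrial folate cycle, were higher at all 3 times. At 24 h SHMT2 had 186, 172, 184 and 184 CPM in coculture and 142, 136, 145 and 141 CPM in monoculture (log2 0.36 ± 0.0426 SE, edgeR adjusted p = 1.66e-07). MTHFD2 had 67.2, 64.0, 65.3 and 61.9 CPM in coculture and 54.2, 54.1, 52.0 and 52.0 CPM in monoculture (log2 0.28 ± 0.0386 SE, edgeR adjusted p = 1.85e-06). No library of the 2 groups overlapped for either gene. Their log2 fold changes were 0.49 ± 0.0426 and 0.16 ± 0.0382 in proliferation and 0.21 ± 0.0423 and 0.42 ± 0.039 at 72 h. The MTHFD2 call at 72 h held with lane as a covariate (log2 0.46, edgeR adjusted p = 5.32e-06) and that of SHMT2 did not (edgeR adjusted p = 0.0751). In proliferation MTHFD2 was not called with library sizes alone.

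PSAT1, the aminotransferase of serine synthesis, had 250.3, 242, 236 and 243 CPM in coculture and 181, 189, 186 and 198 CPM in monoculture at 24 h. The groups lay well apart (log2 0.37 ± 0.0345 SE, edgeR adjusted p = 2.31e-09). The differences in proliferation and at 72 h, -0.07 ± 0.0344 and 0.08 ± 0.0345, were not called by edgeR (adjusted p = 0.0987 and 0.0663). They were called by DESeq2 (adjusted p = 0.0417 and 0.0165). With library sizes alone edgeR called both as well, at log2 -0.14 in proliferation (edgeR adjusted p = 0.00727) and 0.21 at 72 h (edgeR adjusted p = 0.000114). PHGDH, the first enzyme of that pathway, was higher in coculture in proliferation and at 24 h (log2 0.44 ± 0.0382 and 0.19 ± 0.0381) and lower at 72 h (-0.11 ± 0.0382). The 72 h call was lost with lane as a covariate, without the libraries rich in ribosomal RNA and without replicate 3 of either culture, and library sizes alone gave 0.02. ASNS, which makes asparagine and is a standard readout of ATF4 activity, had 203, 208, 215 and 201 CPM in coculture and 205, 207, 204 and 208 CPM in monoculture in proliferation. At 24 h it had 204, 205, 199.9 and 208 CPM in coculture and 213, 199, 190.2 and 195 CPM in monoculture, and neither difference was called (log2 0.00 and 0.04). The groups overlapped at both times. At 72 h ASNS had 199, 208, 206 and 206 CPM in coculture and 224, 214, 262 and 224 CPM in monoculture, without overlap and with monoculture replicate 3 the highest (log2 -0.17 ± 0.0461 SE, edgeR adjusted p = 0.0024). The call was lost without the libraries rich in ribosomal RNA (edgeR adjusted p = 0.152) as well as with lane as a covariate (edgeR adjusted p = 0.123) and with library sizes alone (log2 -0.04, edgeR adjusted p = 0.526).

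Among the amino acid transporters, SLC7A5, which takes up large neutral amino acids, was higher in coculture at all 3 times (log2 0.46 ± 0.0565, 0.22 ± 0.0553 and 0.14 ± 0.057). The 72 h call of SLC7A5 was lost without any of replicates 1, 3 and 4 of either culture, without the libraries rich in ribosomal RNA (edgeR adjusted p = 0.379) and with lane as a covariate (edgeR adjusted p = 0.308). Its heavy-chain partner SLC3A2 was higher in proliferation (log2 0.37 ± 0.0434) and lower at 72 h (-0.16 ± 0.0429), the second not called with lane as a covariate (edgeR adjusted p = 0.0689) or with library sizes alone (log2 -0.02). SLC7A11, the cystine importer that feeds glutathione synthesis, had 7.76, 7.71, 7.22 and 9.48 CPM in coculture and 4.83, 6.60, 4.89 and 5.84 CPM in monoculture at 72 h. All coculture libraries were higher (log2 0.55 ± 0.133 SE, edgeR adjusted p = 0.000938), and with lane as a covariate the log2 value of 0.46 was not called (edgeR adjusted p = 0.101). In proliferation SLC7A11 was lower in coculture, at 8.60 ± 1.48 CPM against 10.9 ± 1.32 CPM in monoculture (SD, n = 4 each; log2 -0.35 ± 0.117 SE, edgeR adjusted p = 0.0109), a call lost without coculture replicate 2 (log2 -0.25, edgeR adjusted p = 0.0946).

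Over the 3 times 38 of the 40 genes were called at least once between the cultures, where 80.1% of all genes were. PDIA4, SHMT2, MTHFD2, SLC7A5 and CEBPB were higher in coculture each time, as were 2.02% of all genes, and EIF2AK3 and GDF15 were lower each time, as were 2.05%. With lane as a covariate PDIA4 and CEBPB were not called at 24 h or 72 h, and SHMT2 and SLC7A5 were not called at 72 h. MTHFD2 in proliferation and EIF2AK3 at 72 h were not called with library sizes alone. The shares of all genes with these patterns were not computed under those settings. The genes higher in proliferation and lower at 72 h were HYOU1, CRELD2, PPP1R15A, PHGDH and SLC3A2 (11.4% of all genes). HYOU1, CRELD2, PHGDH and SLC3A2 lost the 72 h call with lane as a covariate, and PPP1R15A lost the proliferation call with library sizes alone. Those lower in proliferation and higher at 72 h were SEL1L, ATF6 and SLC7A11 (9.75% of all genes). With lane as a covariate SEL1L and SLC7A11 lost the 72 h call and ATF6 kept it. Whether the culture difference itself changed was tested in the same model. Between proliferation and 24 h it changed for 21 of the 40 genes, 5 upward and 16 downward, where 50.5% of all genes were called, 24.3% upward and 26.2% downward (8 and 9 with library sizes alone). Between 24 h and 72 h it changed for 12 genes, 3 upward and 9 downward, against 23.7% of all genes (9 and 5 with library sizes alone). From proliferation to 72 h it changed for 32 genes, 9 upward and 23 downward, against 62.3% of all genes, 31.3% upward and 31.0% downward (14 and 10 with library sizes alone). The median change over that span was -0.17 for the ER folding genes and -0.21 for the ATF4 genes on the log2 scale, beside 0.01 for all genes. Library sizes alone put the median of all genes at 0.06, 0.14 and 0.21 in the 3 tests. These 3 tests share libraries with each other and with the comparisons at each time.

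SDF2L1, SESN2, TRIB3, CRELD2 and DDIT3 had the largest downward changes between proliferation and 24 h, with log2 values of -0.78 ± 0.108, -0.69 ± 0.0671, -0.65 ± 0.0695, -0.60 ± 0.0802 and -0.52 ± 0.0807. SLC7A11, ATF6 and PSAT1 had the largest upward ones at 0.59 ± 0.164, 0.48 ± 0.0708 and 0.43 ± 0.0487. Between 24 h and 72 h the largest changes were those of ATF3 (-1.07 ± 0.131 SE, edgeR adjusted p = 3.39e-07), PPP1R15A (-0.72 ± 0.113 SE, edgeR adjusted p = 1.61e-05) and HSPA5 (-0.45 ± 0.0735 SE, edgeR adjusted p = 2.94e-05), all downward. The ATF4 genes supplied 7 of the 9 downward and 1 of the 3 upward changes in that interval on the TMM scale. Of all 11937 genes 1431 changed upward and 1395 downward. With library sizes alone the ATF4 genes supplied 4 of the 5 downward and 3 of the 9 upward changes. EIF2AK3 on the TMM scale had changes of -0.01 ± 0.0614, 0.01 ± 0.0621 and 0.00 ± 0.0621 in the 3 tests, none of them called.

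Within each culture the genes also moved with time, given here on the TMM scale. Library sizes alone moved the median log2 change of all genes to -0.13 in coculture and -0.19 in monoculture at 24 h against proliferation, and to 0.01 in coculture and -0.13 in monoculture at 72 h against 24 h. From proliferation to 24 h, 24 genes changed in coculture, 11 higher and 13 lower, where 43.2% of all genes were called, 21.0% higher and 22.2% lower (3 and 21 with library sizes alone). In monoculture 28 changed, 19 higher and 9 lower, where 68.5% of all genes were called, 34.3% higher and 34.2% lower (7 and 21 with library sizes alone). SESN2 rose by 0.54 ± 0.0469 in coculture and by 1.23 ± 0.0483 in monoculture on the log2 scale, and TRIB3 by 0.24 ± 0.0483 and 0.89 ± 0.05 in the same order of cultures. For both genes coculture started from the higher level in proliferation and monoculture from the lower, and the cultures ended at overlapping levels at 24 h. Of the 40 genes, 6 were called in opposite directions in the cultures over this interval, against 5.07% of all genes, among them SDF2L1 (-0.21 ± 0.0739 in coculture and 0.56 ± 0.0782 in monoculture), CRELD2 (-0.24 ± 0.0559 and 0.35 ± 0.0575) and DDIT3 (-0.28 ± 0.0573 and 0.24 ± 0.0568).

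From 24 h to 72 h, 32 genes changed in coculture, 16 higher and 16 lower, where 48.2% of all genes were called, 24.4% higher and 23.8% lower. In monoculture 29 changed, 13 higher and 16 lower, where 53.9% of all genes were called, 27.3% higher and 26.6% lower (9 and 21 with library sizes alone). Across this interval 11 genes were higher in both cultures and 12 lower in both, where 32.2% of all genes were called in the same direction in both. HSPA5 rose by 0.68 ± 0.0522 in coculture and by 1.14 ± 0.0526 in monoculture on the log2 scale, and HYOU1 by 0.38 ± 0.0355 and 0.47 ± 0.0355. PPP1R15A rose by 1.12 ± 0.0808 in coculture and 1.84 ± 0.0805 in monoculture, and ATF3 by 0.27 ± 0.0942 and 1.34 ± 0.0909. CEBPB rose by a similar amount in the cultures, 1.19 ± 0.0702 in coculture and 1.07 ± 0.0723 in monoculture. Other folding genes, CALR, HSP90B1, SDF2L1, CRELD2, MANF and all 3 isomerases, fell in both cultures over the same interval, PDIA4 most among the isomerases at -0.56 ± 0.0523 in coculture and -0.55 ± 0.0525 in monoculture. EDEM1 and PSAT1 were called in opposite directions, as were 1.88% of all genes, EDEM1 at 0.17 ± 0.0629 in coculture and -0.19 ± 0.0658 in monoculture, and PSAT1 at -0.10 ± 0.0344 and 0.19 ± 0.0346.

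**Figure D4:**
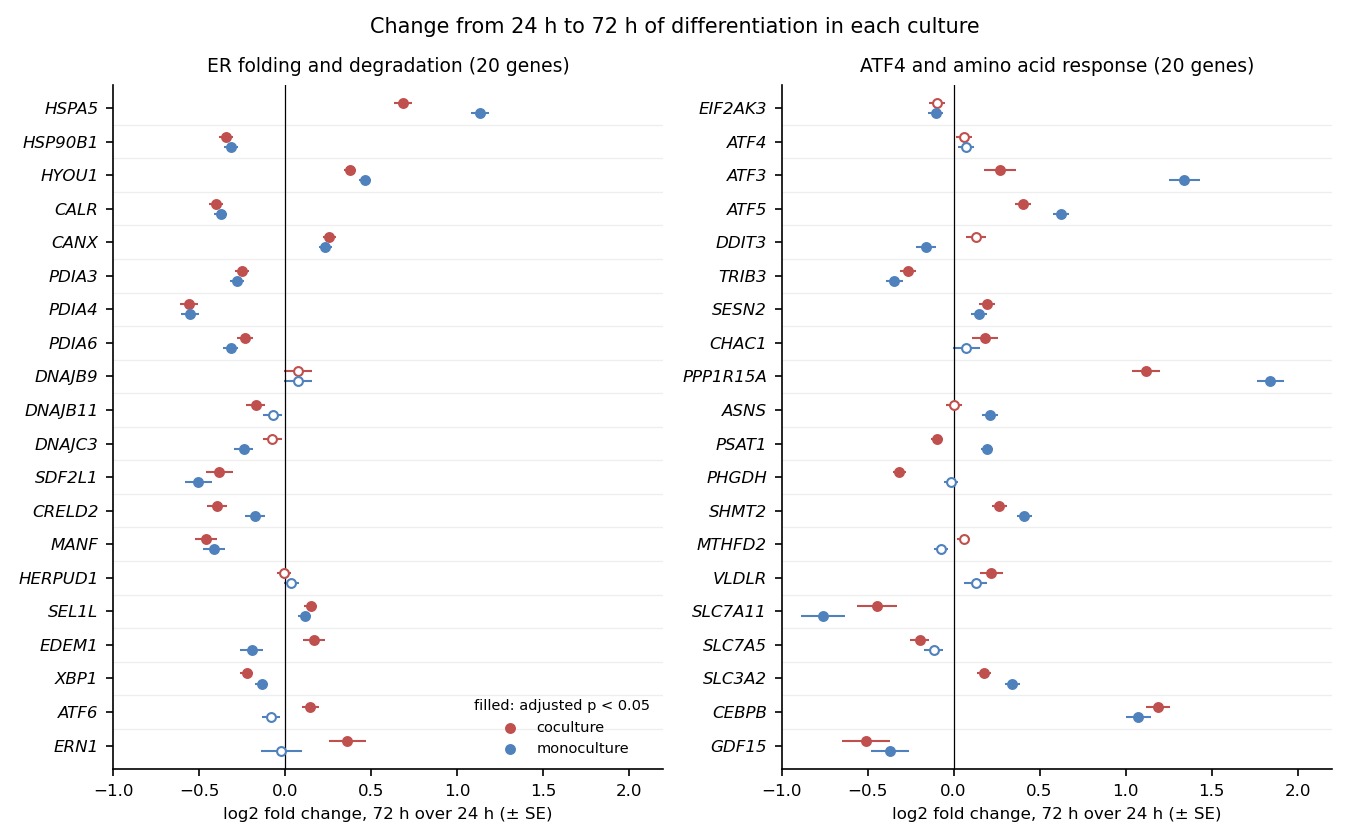
Log2 fold change of 72 h over 24 h (x axis, ± SE) for the 40 genes in coculture and in monoculture, with filled points for genes called by edgeR at an adjusted p under 0.05. PPP1R15A, ATF3 and HSPA5 lie farther from 0 in monoculture (1.84, 1.34 and 1.14) than in coculture (1.12, 0.27 and 0.68), while CEBPB lies close together in the cultures.

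**Figure D5:**
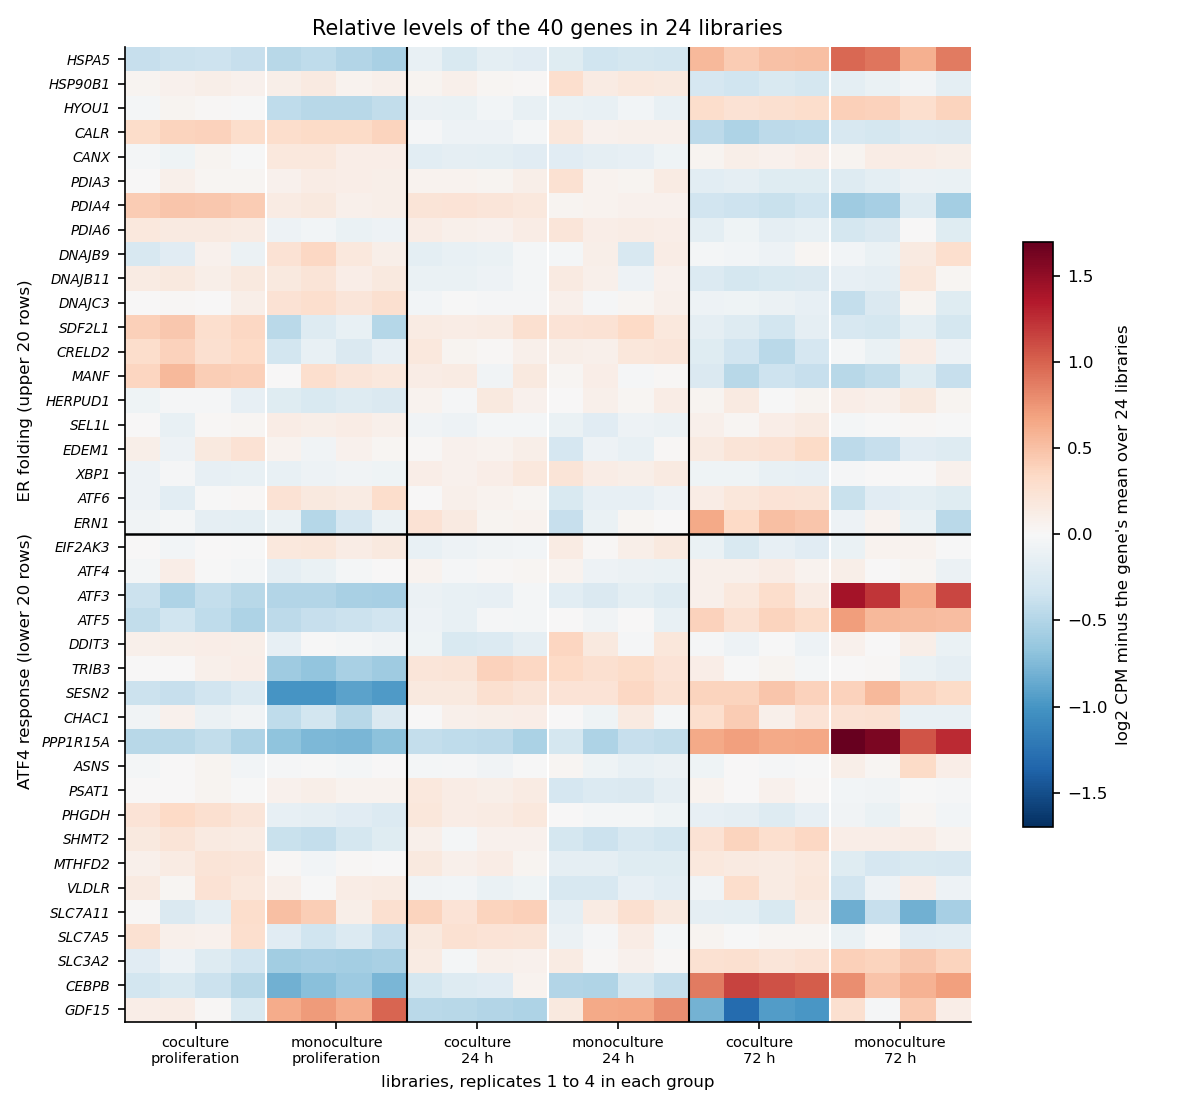
Level of each of the 40 genes (down the page) in each of the 24 libraries (across), as log2 CPM minus the gene's mean over the 24 libraries, red for higher and blue for lower. The deepest red cells are those of PPP1R15A and ATF3 in monoculture at 72 h, where replicate 3 is paler for HSPA5, ATF3 and PPP1R15A, and the deepest blue cells are those of SESN2 in monoculture in proliferation and of GDF15 in coculture at 72 h.

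Other genes of the same pathways were counted from lists that share no gene with the 40. Their values come from the main fit on the TMM scale. They were not worked out with lane as a covariate, library sizes alone or the other alternatives. At 72 h lane and culture coincide, and library sizes alone moved the median of all genes from -0.001 to 0.13. The splits into higher and lower below hold for the TMM scale only. Of 56 further ER folding, translocation and degradation genes, 25 were higher and 14 lower in coculture in proliferation, 8 and 8 at 24 h, and 10 and 19 at 72 h, with medians of 0.11, -0.007 and -0.08 on the log2 scale. The 56 genes carry 55 of the 57 symbols looked for. Of all genes 30.3% were higher and 28.7% lower in proliferation, 11.5% and 12.2% at 24 h, and 25.1% and 25.4% at 72 h. In proliferation the largest rises were those of CREB3L1, a membrane-bound factor of secretory cells (log2 0.59 ± 0.0556), SEC61A1, the channel through which proteins enter the ER (0.44 ± 0.0357), and SERPINH1, the collagen chaperone (0.42 ± 0.0384). FKBP14, SEC63 and EDEM3 fell most (-0.53, -0.44 and -0.42). ERO1A, the oxidase that recharges the isomerases, led the rises at 24 h (log2 0.51 ± 0.059) and at 72 h. At 72 h it averaged 133 ± 11.5 CPM in coculture and 66.0 ± 4.25 CPM in monoculture (SD, n = 4 each; log2 1.02 ± 0.0573 SE, edgeR adjusted p = 5.10e-15). UBE2J1 and SEC61B followed it at 24 h (0.22 and 0.16) and CREB3L2 and HERPUD2 at 72 h (0.47 and 0.33). ATF6B, the paralog of ATF6, fell most at 24 h (log2 -0.36 ± 0.0458) and at 72 h (-0.61 ± 0.0464), opposite to ATF6 at those times. DERL2 and SIL1 (-0.28 and -0.22) came next at 24 h, and SERPINH1 and SYVN1, the HRD1 ligase (-0.34 and -0.28), at 72 h.

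Of 44 further genes of eIF2alpha control and the amino acid response, 18 were higher and 12 lower in coculture in proliferation, 13 and 3 at 24 h, and 13 and 10 at 72 h, with medians of 0.09, 0.04 and 0.05, beside the same shares of all genes. The 44 genes carry 42 of the 47 symbols looked for, so a symbol can count more than once. These values too were given by the main fit alone, without a check for lane or scaling. EIF4EBP1, the translation repressor that ATF4 induces, rose most in proliferation (log2 0.69 ± 0.0455), followed by DDIT4 (0.53), an inhibitor of mTORC1, and PYCR1 (0.52), an enzyme of proline synthesis. SLC38A2, a sodium-coupled transporter of neutral amino acids, fell most (-0.71 ± 0.0608), followed by NUPR1 (-0.70) and EIF2S1 (-0.41), the eIF2alpha subunit itself. EIF2AK2, the kinase PKR that senses double-stranded RNA and is induced by interferon, led the rises at 24 h (log2 0.73 ± 0.12) and 72 h (1.30 ± 0.12). At 72 h it averaged 17.9 ± 1.97 CPM in coculture and 7.30 ± 1.18 CPM in monoculture (SD, n = 4 each). STC2, a secreted glycoprotein induced by ER stress, came second at 24 h (0.46 ± 0.0686) and at 72 h (0.69 ± 0.0668), and the amino acid transporters SLC38A1 (0.29) and SLC7A1 (0.52) came next. BBC3, which encodes the cell death protein PUMA, fell most at both times (-0.86 ± 0.109 and -0.82 ± 0.115), with NUPR1 (-0.28) and EIF2B4 (-0.23) after it at 24 h and PSPH (-0.33) and NUPR1 (-0.29) at 72 h.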

How the data were processed

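The authors deposited a table of counts, whole numbers of reads per gene and library. Per the submitters' processing notes, the tools included FastQC, STAR, RSEM and DESeq2, with neither versions nor a genome build, and the counts may be rounded RSEM estimates. The table has 36 library columns, and 12 of them, which fit no label, were left out. The authors also deposited 3 tables, 1 per time, that per the file headers hold log2 fold changes of coculture over monoculture and p-values; the 40 symbols were read from them. At an adjusted p under 0.05 the authors' deposited tables call 28, 15 and 23 of the 40 genes in order of time, 26, 14 and 23 of them also called here, with log2 values that differ by at most 0.0078.

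Counts were analysed with edgeR 4.0.16 in R 4.3.3. All 24 libraries entered 1 quasi-likelihood model with TMM factors and 1 mean per group (18 residual degrees of freedom; common dispersion 0.0047); filterByExpr removed 0 genes. Standard errors were derived from the fold change and its F statistic and rest on 1 spread per gene for all groups. There were 10 comparisons, adjusted over 11937 genes each at a threshold of 0.05, and the script was tested on simulated counts. Members and gene lists were chosen with earlier results of these data known, so no p-value was adjusted over a list. Values in every library are given for HSPA5, XBP1, ATF4, DDIT3, ASNS and for the 5 members with the largest called difference at each time; those printed for ATF6 and EDEM1 were added after their values were seen. Of the other pathway genes, the 3 largest called rises and falls with at least 5 CPM in the higher group are named.

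Alternatives were RLE scaling, library sizes alone, a filter at a mean of 5 CPM, no filter, DESeq2 1.42.0, the compared groups alone, replicate number as a block, lane as a covariate, lane 6 alone, leaving out libraries with over 1.5% nuclear ribosomal RNA, and leaving out each library. No sequence is shown, because the reference tables at hand hold gene names only.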

Additional observations from a re-analysis of the deposited data

Results flagged for a closer look

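In 16 of 240 groups of 4 libraries, 6.67%, a single library stood apart from the other 3; chance alone gives this in about 1 of 20 groups. In proliferation, coculture replicate 2 had 457.9 CPM of ATF4 against 413.5 to 420.4 CPM in the other coculture libraries, and 210.3 CPM of SEL1L against 231.6 to 234.3 CPM. Coculture replicate 4 had 107.5 CPM of DNAJC3 against 100.4 to 101.2 CPM, and monoculture replicate 2 had 58.09 CPM of MTHFD2 against 60.44 to 60.92 CPM.

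At 24 h, coculture replicate 2, the library richest in ribosomal RNA, had 171.5 CPM of SHMT2 against 183.6 to 186.0 CPM in its group, and 10.12 CPM of SLC7A11 against 11.23 to 11.43 CPM. Coculture replicate 4 had 14.13 CPM of SDF2L1 against 12.71 to 12.89 CPM, and replicate 1 had 30.26 CPM of CHAC1 against 32.05 to 32.41 CPM. Monoculture replicate 1 had 994.4 CPM of CALR against 913.0 to 919.8 CPM, and 379.4 CPM of PDIA6 against 353.4 to 357.1 CPM. At 72 h, coculture replicate 3 had 106.4 CPM of SESN2 against 100.2 to 100.7 CPM, and 306.5 CPM of PHGDH against 320.6 to 323.4 CPM, while replicate 2 had 604.4 CPM of CALR against 640.8 to 641.8 CPM. Monoculture replicate 3 had 193.7 CPM of PDIA4 against 148.3 to 152.1 CPM, replicate 1 had 413.9 CPM of ATF5 against 364.4 to 369.4 CPM, and replicate 4 had 182.0 CPM of SHMT2 against 189.3 to 190.1 CPM.

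For the 17 genes with values in every library by rule, 51 differences of the culture effect between times were tested in the edgeR model, and 30 were called. Between proliferation and 24 h the log2 change of the coculture over monoculture difference was called for SDF2L1 (-0.78 ± 0.108), PPP1R15A (-0.31 ± 0.119), SESN2 (-0.69 ± 0.0671), PSAT1 (0.43 ± 0.0487), TRIB3 (-0.65 ± 0.0695), DDIT3 (-0.52 ± 0.0807), SLC7A11 (0.59 ± 0.164) and CRELD2 (-0.60 ± 0.0802), with SE and edgeR adjusted p of 3.51e-09 to 0.0318. Between 24 h and 72 h it was called for PPP1R15A (-0.72 ± 0.113), ASNS (-0.21 ± 0.0651), HSPA5 (-0.45 ± 0.0735), ATF3 (-1.07 ± 0.131), PSAT1 (-0.29 ± 0.0488), DDIT3 (0.29 ± 0.0812) and CRELD2 (-0.22 ± 0.0819), with edgeR adjusted p of 3.39e-07 to 0.0497. Between proliferation and 72 h it was called for SDF2L1 (-0.65 ± 0.113), PPP1R15A (-1.03 ± 0.114), SESN2 (-0.65 ± 0.067), ASNS (-0.18 ± 0.0651), MTHFD2 (0.25 ± 0.0546), HSPA5 (-0.46 ± 0.0735), ATF3 (-1.04 ± 0.135), PSAT1 (0.14 ± 0.0487), GDF15 (-0.48 ± 0.173), ERN1 (0.47 ± 0.163), TRIB3 (-0.57 ± 0.0707), SHMT2 (-0.27 ± 0.0599), DDIT3 (-0.23 ± 0.0811), SLC7A11 (0.90 ± 0.177) and CRELD2 (-0.82 ± 0.0822), with edgeR adjusted p of 1.26e-09 to 0.0197. Negative values mean that coculture stood lower relative to monoculture at the later time than at the earlier.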

How the results depend on the processing

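With lane as a covariate 12 of the 40 genes were called between the cultures at 72 h, against 26 without it; the covariate is estimated from 4 coculture 24 h libraries, and lane and culture coincide at 72 h. With library sizes alone 9 genes changed sign at 72 h, of which 5 were called on neither scale; the other 4 were HYOU1 (log2 0.0442, edgeR adjusted p = 0.434), XBP1 (0.0137, edgeR adjusted p = 0.835), PHGDH (0.0204, edgeR adjusted p = 0.723) and CANX (0.1174, edgeR adjusted p = 0.0278), the last not called on the TMM scale; the cause was not tested. Leaving out each library in turn gave 25 to 26 called genes in proliferation, 11 to 13 at 24 h and 22 to 27 at 72 h. For the changes of the difference it gave 17 to 22 (24 h against proliferation), 9 to 13 (72 h against 24 h) and 30 to 33 (72 h against proliferation). For the changes with time it gave 19 to 24 and 29 to 32 in coculture, and 27 to 29 and 27 to 30 in monoculture. Libraries with the same replicate number did not deviate together: 1 of 12 pairs had a correlation over 0.1 (range -0.127 to 0.119), and 2 of the 12 correlated best with their own number. A fit with the replicate number as a block called 26, 14 and 25 genes between the cultures in order of time. For the other comparisons the total of called genes stayed within 1.5 times under each alternative run, while library sizes alone moved several of the splits into higher and lower by more, as given above. With lane as a covariate, 10 genes rather than 14 were called between the cultures at 24 h. The change of the difference from proliferation to 24 h was called for 16 rather than 21 genes (14 on lane 6 alone). That from proliferation to 72 h was called for 24 rather than 32 genes. In coculture 18 rather than 24 genes changed from proliferation to 24 h (16 on lane 6 alone). From 24 h to 72 h 27 rather than 32 genes changed in coculture. In 57 cases a gene called under neither setting had the other sign. DDIT3, SLC7A11, PDIA4, EDEM1, CEBPB, HYOU1, SEL1L, PHGDH and SLC7A5 each had a call lost on leaving out a single library, as given above. For DDIT3, SLC7A11 and CEBPB this was 1 particular library, and for the others any of several. Lane 6 alone gives no 72 h value, since it holds no coculture library of that time. ERN1, SLC7A11 and GDF15 had the fewest counts, 56, 76 and 83 in their lowest libraries, and the largest standard errors between the cultures at 72 h.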
